A study of Rattus norvegicus with 16 samples.

Results

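Hearts of untrained rats from a line bred for high running capacity were compared with hearts of trained rats from a line bred for low capacity. The 8 arrays were selected by their sample titles out of 16 in the series, 4 from High Capacity Runner (HCR) rats kept sedentary and 4 from Low Capacity Runner (LCR) rats that were exercise trained, and 31042 probe sets were compared on them. Every animal was a 7-month-old female of generation 16 of 2 lines derived from N:NIH stock, and each array holds left ventricular RNA of 1 rat. Training lasted 8 weeks, with sessions of 1.5 hours on 5 days per week on a treadmill inclined by 25°, in which 8 minutes at 85 to 90% of maximal oxygen uptake alternated with 2 minutes at 50 to 60%. The comparison addresses which differences between the lines are seen when only the low line has trained. Its groups differ in line and in training state at once, so within these 8 arrays the part of each cannot be told apart. The other 8 arrays, 4 of trained HCR rats and 4 of sedentary LCR rats, share the estimate of spread and are given beside the results.

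The rat ventricle is built mainly of cardiomyocytes, which draw most of their ATP from the oxidation of fatty acids in mitochondria and keep glucose and lactate as further fuels. Fibroblasts, endothelial cells, smooth muscle cells, macrophages and nerves make up the remaining cells. Endurance training is known to enlarge the ventricle and to raise its pumping capacity. In a piece of ventricle, fewer cells of a type and less RNA per cell cannot be told apart.

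Levels below are log2 expression values made by robust multi-array averaging (RMA), and a difference is HCR sedentary minus LCR trained unless another comparison is named. A difference of 1 on this scale is a doubling, and ± after a difference is its standard error. A probe set was called when its Benjamini-Hochberg adjusted p in limma was 0.05 or less. Where a gene has several probe sets, the brightest called one stands for it, or else the brightest.

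On 1 of the 8 arrays a transcript went against the label. Xist, the RNA of the inactive X chromosome in females, was at 4.54 on the array labelled HCR sedentary rat 5 and between 7.56 and 10.34 on the other 15. Its 3 further probe sets read 4.36, 3.76 and 4.94 there, also below all other arrays. The Y-linked Eif2s3y read 3.53 there against 3.33 to 3.50 elsewhere, and one Uty probe set 6.15 against 6.92 to 7.36. For each difference between these 2 groups that is described as called, the adjusted p without HCR sedentary rat 5, or rat 5 for short, stands beside that with all arrays. The interquartile range of values within an array was 2.02 ± 0.057 (SD, n = 4) in HCR sedentary rats and 2.15 ± 0.097 (SD, n = 4) in LCR trained rats, so bright and dim probe sets leaned in opposite directions. Among probe sets at or above the median level 39.9% were higher in HCR sedentary rats, and among dimmer ones 71.1%. The medians of gene lists are therefore also given after quantile normalization of the deposited values.

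Of the 31042 probe sets, 645 were called (2.08%), 231 higher in HCR sedentary rats (0.744%) and 414 lower (1.33%). They stood for 466 of 14217 named genes (3.28%), 146 higher (1.03%) and 320 lower (2.25%), and 168 called probe sets had no single gene symbol. Most called differences were modest, with a median size of 0.36, and 19 called probe sets reached 2-fold, 4 higher and 15 lower. The 4 HCR and 4 LCR values did not overlap for 593 of the 645, against 3474 of all probe sets (11.2%). The lean towards lower levels belonged to the bright probe sets, of which 97 were called higher and 378 lower, while 134 dim ones were called higher and 36 lower. With arrays centred on their medians 1074 probe sets were called and 13.8% of them were higher, against 35.8% in the deposited values. The count also rested on single rats. It was 57 without HCR sedentary rat 5, 55 without HCR sedentary rat 4, 124 without HCR sedentary rat 6, 42 without LCR trained rat 3 and 73 without LCR trained rat 4. It was 1047 without HCR sedentary rat 3 and 2619 without LCR trained rat 2, and 394 without LCR sedentary rat 3, which only shares in the spread. Among the 30 leading genes described next, every one kept its direction in each of these settings. They were chosen for groups that do not overlap, so leaving out 1 array cannot reverse them.

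**Figure D1:**
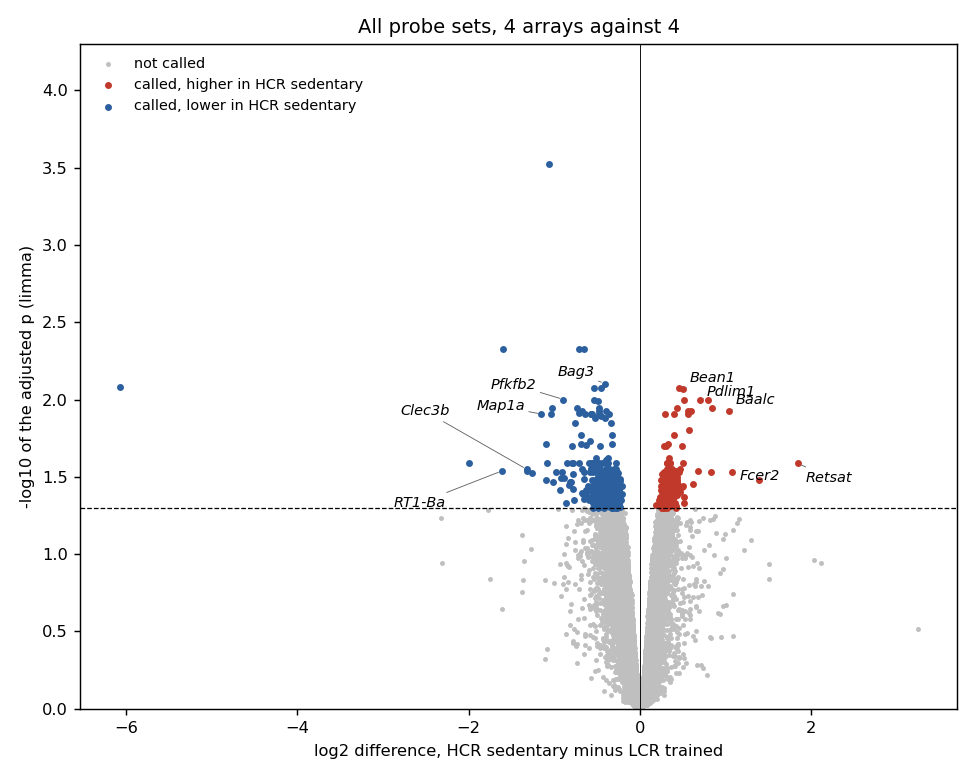
Each point is 1 of 31042 probe sets, with the log2 difference on the horizontal axis and -log10 of the limma adjusted p on the vertical axis; the dashed line marks an adjusted p of 0.05. The 414 called lower (blue) outnumber the 231 called higher (red), and Retsat, Clec3b and RT1-Ba lie far from 0 with adjusted p close to the line.

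The genes higher in sedentary HCR rats were led by a retinoid enzyme and by several genes best known outside the heart. Retsat saturates a double bond of retinol and is also a target of PPAR signalling. Its level was 11.69, 11.51, 11.52 and 11.60 in HCR sedentary rats 3 to 6, and 9.14, 11.12, 9.64 and 9.03 in LCR trained rats 1 to 4. LCR trained rat 2 lay close to the HCR rats and the other 3 LCR rats about 2 log2 units lower, with no overlap. The difference was 1.85 ± 0.35, or 3.60-fold (limma adjusted p = 0.0259, and 0.0745 without HCR sedentary rat 5). Trained HCR rats were at 11.67 ± 0.10 (SD, n = 4) and sedentary LCR rats at 9.47 ± 0.62.

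Baalc encodes a small membrane-associated protein known from the brain and from leukaemia. It read 6.85, 6.96, 7.75 and 7.21 in HCR sedentary and 6.32, 6.33, 5.94 and 6.04 in LCR trained rats. HCR sedentary rat 5 was the highest, and the groups did not overlap. The difference was 1.03 ± 0.16 (2.05-fold, limma adjusted p = 0.0119, and 0.85 with adjusted p = 0.0297 without that rat). Rims1, a scaffold of the presynaptic release site, read 6.15, 5.56, 5.50 and 5.95 against 4.95, 5.15, 5.04 and 4.65. HCR sedentary rat 3 was highest, and the difference was 0.84 ± 0.13 (adjusted p = 0.0114, and 0.0145 without rat 5). Chrna1, a subunit of the acetylcholine receptor of skeletal muscle, read 5.46, 5.79, 5.60 and 5.82 against 5.08, 5.23, 4.98 and 4.99, a difference of 0.60 ± 0.09 (adjusted p = 0.0119, and 0.0385 without rat 5). Slc1a1, a glutamate and aspartate transporter, differed by 0.51 ± 0.08 (adjusted p = 0.00997, and 0.0385 without rat 5) and Bean1, a membrane protein that binds the ubiquitin ligase Nedd4, by 0.50 ± 0.07 (adjusted p = 0.00855, and 0.0171 without rat 5), again without overlap. A brighter probe set of Slc1a1 read 0.30 and was not called (adjusted p = 0.110). In 8 further fits that each left out 1 of the 8 arrays, these 5 genes were called every time, whereas Retsat was called in 3 of 8 (adjusted p up to 0.0809, without LCR trained rat 4). Rims1, Chrna1 and Slc1a1 are dim, with LCR trained means of 4.95, 5.07 and 5.49 against array medians of 5.85 to 5.95. Among dim probe sets 71.1% were higher in HCR sedentary rats. After quantile normalization these 3 genes differed by 0.79, 0.54 and 0.46.

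Cyp11a1 makes pregnenolone from cholesterol, the first step of steroid synthesis. Its level was 7.70, 7.41, 7.49 and 7.89 in HCR sedentary and 6.51, 7.06, 6.55 and 7.05 in LCR trained rats. LCR trained rats 2 and 4 lay closest to the HCR values, and the groups did not overlap. The difference was 0.83 ± 0.17 (limma adjusted p = 0.0295, and 0.0745 without HCR sedentary rat 5). Pdlim1, an adaptor of actin filaments, read 10.11, 10.07, 10.17 and 10.06 against 9.32, 9.47, 9.29 and 9.55, a tight separation of 0.70 ± 0.10 (adjusted p = 0.00997, and 0.0385 without rat 5, called in 8 of 8 such fits). Vps52, a subunit of a complex that returns vesicles to the Golgi, differed by 0.56 ± 0.09 (adjusted p = 0.0124, and 0.0436 without rat 5), and a further probe set of it by 0.45 ± 0.064 (adjusted p = 0.00843, and 0.0297 without rat 5). Tubb5, a beta tubulin, read 9.14, 9.38, 9.12 and 9.14 against 8.85, 8.27, 8.68 and 8.54, and HCR sedentary rat 4 stood above the other 3 HCR rats. It differed by 0.61 ± 0.13 (adjusted p = 0.0350, and 0.0913 without rat 5, called in 3 of 8 such fits, adjusted p up to 0.105, without HCR sedentary rat 4). A brighter probe set of Tubb5 read 0.20 and was not called (adjusted p = 0.0947).

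Fcer2 encodes CD23, the low-affinity IgE receptor of B cells. It read 7.17, 7.12, 7.46 and 7.60 in HCR sedentary and 6.23, 7.05, 5.72 and 6.06 in LCR trained rats. LCR trained rat 2, at 7.05, nearly reached the lowest HCR value. The difference was 1.07 ± 0.22 (limma adjusted p = 0.0295, and 0.0913 without HCR sedentary rat 5), and a dimmer probe set of the gene differed by 0.43 ± 0.093 (adjusted p = 0.0341, and 0.0989 without rat 5). Igf2, a growth factor that acts on the IGF1 and insulin receptors, read 8.31, 8.45, 8.33 and 8.36 against 7.84, 8.16, 7.63 and 7.82. Its difference was 0.50 ± 0.11 (adjusted p = 0.0360, and 0.0966 without rat 5), called in 2 of 8 such fits (adjusted p up to 0.110, without LCR trained rat 3), and 3 dimmer probe sets of Igf2 were not called. Abtb3, Pkhd1l1 and Bex3 complete the 15 leading higher genes, with differences of 0.51 ± 0.12, 0.50 ± 0.09 and 0.49 ± 0.09 (adjusted p = 0.0427, 0.0259 and 0.0200, and 0.136, 0.0370 and 0.0454 without rat 5). A brighter probe set of Bex3 read 0.17 and was not called (adjusted p = 0.192).

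**Figure D2:**
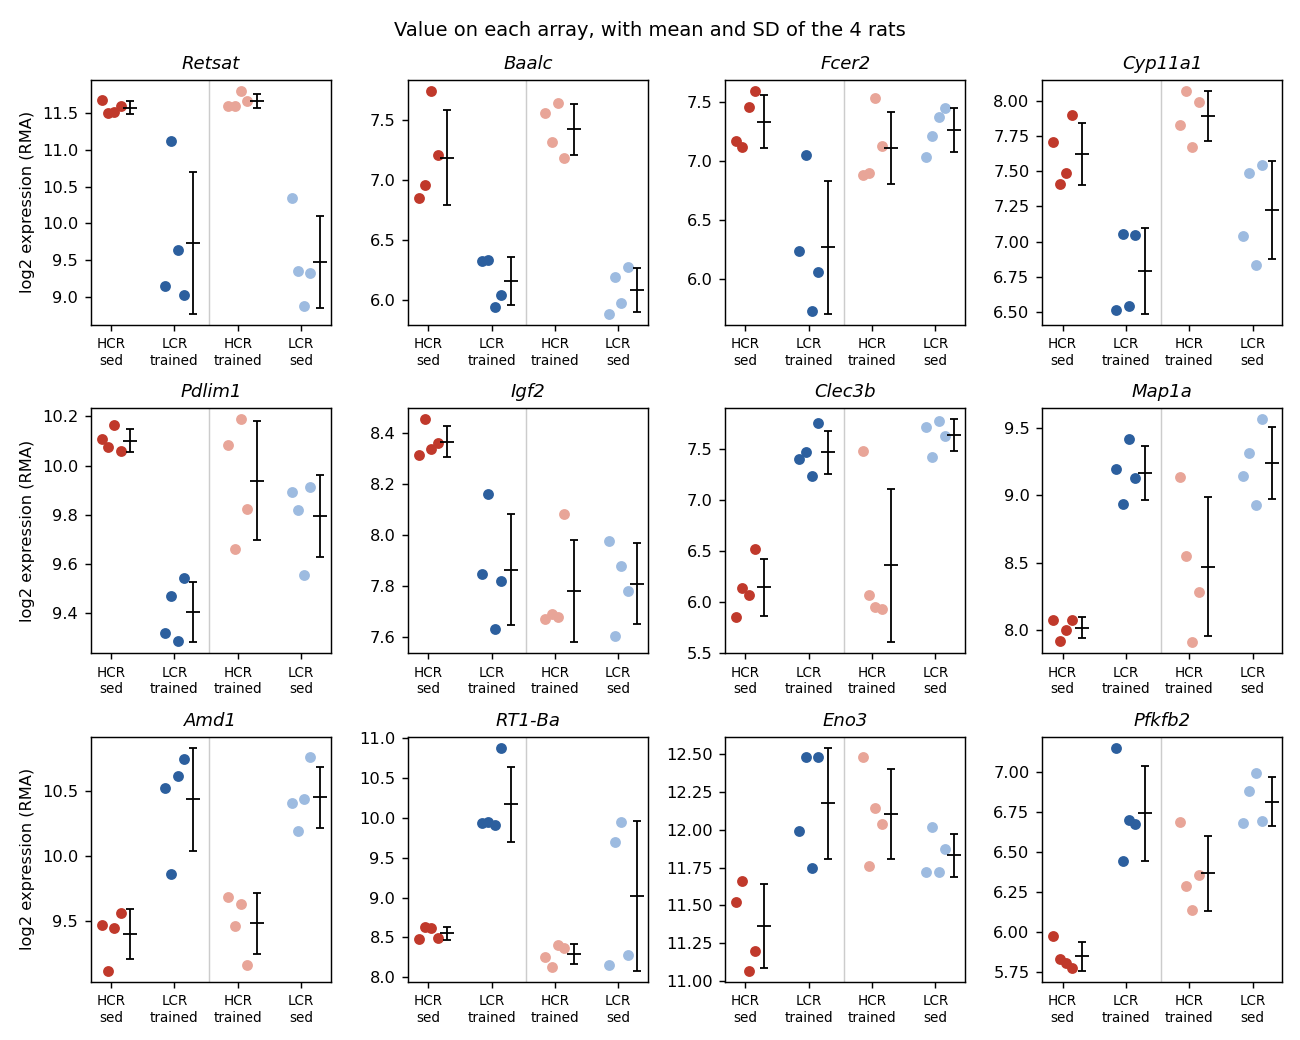
Log2 level of 12 genes on each of the 16 arrays, with the mean and SD of the 4 rats of a group; the grey line separates the 2 groups compared from the others. The genes were chosen for groups that do not overlap, so the first 2 columns of each panel are apart by that choice. Retsat in LCR trained rat 2, at 11.12, sits close to the HCR rats.

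The genes lower in sedentary HCR rats than in trained LCR rats included an antigen-presenting chain, matrix and cytoskeletal genes, and enzymes of polyamine, sulfide and sugar metabolism. RT1-Ba, the alpha chain of a rat class II histocompatibility molecule, read 8.48, 8.63, 8.61 and 8.49 in HCR sedentary and 9.94, 9.94, 9.91 and 10.88 in LCR trained rats. LCR trained rat 4 stood about 1 log2 unit above the other 3. The difference was -1.61 ± 0.32 (limma adjusted p = 0.0290, and 0.0824 without HCR sedentary rat 5). The 3 further RT1-Ba probe sets did not move together, since one was called at -2.00 ± 0.38 (adjusted p = 0.0259, and 0.0758 without rat 5) and those that were not called read 0.58 and 1.01. RT1 genes vary between rat haplotypes and resemble each other, so the probe sets may read different alleles or copies, which was not tested.

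Clec3b encodes tetranectin, a plasminogen-binding protein of plasma and matrix. It read 5.85, 6.13, 6.07 and 6.52 against 7.41, 7.48, 7.24 and 7.76, and no HCR sedentary rat reached the LCR trained values. HCR trained rat 3 did, at 7.49, while HCR trained rats 4, 5 and 6 read 6.07, 5.95 and 5.93. The difference was -1.32 ± 0.26 (2.50-fold lower, limma adjusted p = 0.0282, and 0.0824 without HCR sedentary rat 5), with a further probe set called at -0.69 ± 0.12 (adjusted p = 0.0194, and 0.0711 without rat 5). Map1a, a microtubule-associated protein best known from neurons, read 8.08, 7.92, 8.00 and 8.08 against 9.19, 8.93, 9.42 and 9.13, a difference of -1.15 ± 0.19 (adjusted p = 0.0124, and 0.0441 without rat 5, called in 7 of 8 such fits, adjusted p up to 0.0561, without LCR trained rat 3). HCR trained rat 3 read 9.13 for Map1a, within the LCR trained values, and HCR trained rats 4, 5 and 6 read 8.55, 7.91 and 8.29. Epb41, which ties the spectrin skeleton to the membrane, read 6.99, 6.94, 6.70 and 6.84 against 7.66, 7.61, 8.64 and 7.93, with LCR trained rat 3 the highest and a difference of -1.09 ± 0.21 (adjusted p = 0.0259, and 0.0824 without rat 5, called in 3 of 8 such fits). A brighter probe set of Epb41 read -0.19 and was not called (adjusted p = 0.244). Ecm2, a matrix protein, differed by -0.79 ± 0.14 (adjusted p = 0.0200, and 0.0745 without rat 5). Klrd1, the CD94 receptor of natural killer cells, read 5.08, 4.95, 5.26 and 4.85 against 5.81, 5.96, 5.86 and 6.08, a difference of -0.89 ± 0.19 (adjusted p = 0.0321, and 0.0745 without rat 5, called in 3 of 8 such fits).

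Several enzymes stood in the same group. Amd1 supplies the aminopropyl donor for spermidine and spermine. It read 9.47, 9.12, 9.44 and 9.56 against 10.52, 9.86, 10.61 and 10.75, with LCR trained rat 2 the lowest of its group and still above every HCR sedentary rat. The difference was -1.04 ± 0.17 (limma adjusted p = 0.0124, and 0.0413 without HCR sedentary rat 5). Sqor, which oxidises hydrogen sulfide at the inner mitochondrial membrane, read 7.74, 7.86, 7.97 and 8.31 against 8.71, 8.46, 9.09 and 8.76, a difference of -0.79 ± 0.15 (adjusted p = 0.0259, and 0.0745 without rat 5, called in 4 of 8 such fits). Pfkfb2, the heart form of the enzyme that sets fructose 2,6-bisphosphate, read 5.98, 5.83, 5.81 and 5.77 against 7.15, 6.44, 6.70 and 6.68. Its difference was -0.90 ± 0.13 (adjusted p = 0.00997, and 0.0379 without rat 5), called in all 8 such fits, and its 3 dimmer probe sets were not called. Eno3, the muscle enolase, read 11.52, 11.66, 11.07 and 11.20 against 11.99, 12.48, 11.75 and 12.48, a difference of -0.81 ± 0.18 (adjusted p = 0.0341, and 0.112 without rat 5, called in 4 of 8 such fits, adjusted p up to 0.112, without LCR trained rat 4). Akr1b10, an aldo-keto reductase, differed by -0.93 ± 0.21 (adjusted p = 0.0382, and 0.112 without rat 5), while a second probe set of it read 0.07.

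The remaining leading lower genes were Dpy19l4 at -0.98 ± 0.20 (limma adjusted p = 0.0295, and 0.0935 without rat 5), the anaphase-promoting complex subunit Anapc16 at -0.80 ± 0.15 (adjusted p = 0.0259, and 0.0798 without rat 5), the DNA repair ligase Lig4 at -0.78 ± 0.18 (adjusted p = 0.0380, and 0.104 without rat 5) and LOC102554789 at -1.10 ± 0.23 (adjusted p = 0.0332, and 0.102 without rat 5). A brighter probe set of Lig4 read -0.005 and was not called. Of the 30 leading genes, 12 were called without HCR sedentary rat 5, 9 without HCR sedentary rat 4, 16 without HCR sedentary rat 6, 9 without LCR trained rat 3 and 11 without LCR trained rat 4. Among the 46 called genes chosen by the rule for naming genes, 11 were called with each of the 8 arrays left out. They were Baalc, Rims1, Pdlim1, Chrna1, Vps52, Slc1a1 and Bean1 on the higher side and Pfkfb2, Bag3, Tgfb3 and Cand2 on the lower side. The largest difference of all belonged to a probe set whose annotation lists several genes and which stays unnamed here. It read 4.45, 4.60, 4.58 and 4.55 in HCR sedentary rats and 10.27, 10.28, 10.61 and 11.30 in LCR trained rats, a difference of -6.07 ± 0.83 (adjusted p = 0.00832, and 0.0233 without rat 5). HCR trained rat 3 read 9.52 on it, while HCR trained rats 4, 5 and 6 read 4.50, 4.54 and 4.52. The probe set is given for its size, after its values were seen.

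The comparison equals the line difference in sedentary rats minus the training difference in the low line, and it shares arrays with both, so their values stand side by side as a description. For many leading genes trained and sedentary LCR rats lay at nearly the same level. Amd1 read -0.01 for trained minus sedentary LCR rats and -1.05 for the line difference in sedentary rats, Baalc 0.08 and 1.11, and Map1a -0.07 and -1.22. Clec3b read -0.17 and -1.49, and Pfkfb2 -0.07 and -0.97. In these genes the difference from trained LCR rats was about that from sedentary LCR rats.

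Other leading genes lay at similar levels in sedentary rats of both lines and apart in trained LCR rats. Leading genes were chosen for a large difference from trained LCR rats, and that choice favours genes in which these rats lie apart. Fcer2 read 0.07 for the line difference in sedentary rats, with a mean of 7.27 ± 0.19 in sedentary and 6.26 ± 0.56 in trained LCR rats (SD, n = 4). Abtb3 read -0.03 for that line difference and -0.54 for trained minus sedentary LCR rats, and in the same order Tubb5 0.08 and -0.53. RT1-Ba, at -0.47 and 1.15, followed neither pattern, since its sedentary LCR rats read 8.16, 9.70, 9.95 and 8.28, some near the trained LCR rats and some below the sedentary HCR rats. Pdlim1, Cyp11a1, Slc27a1, Lig4 and Eno3 lay between these patterns, with training differences in LCR rats of -0.39, -0.43, 0.34, 0.41 and 0.34. Not one of these training differences passed the test. Across all probe sets the trained against sedentary LCR comparison called 1 (0.00322%), an unnamed one, with 1728 at an unadjusted p under 0.05, while the line difference in sedentary rats called 1549 (4.99%).

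**Figure D3:**
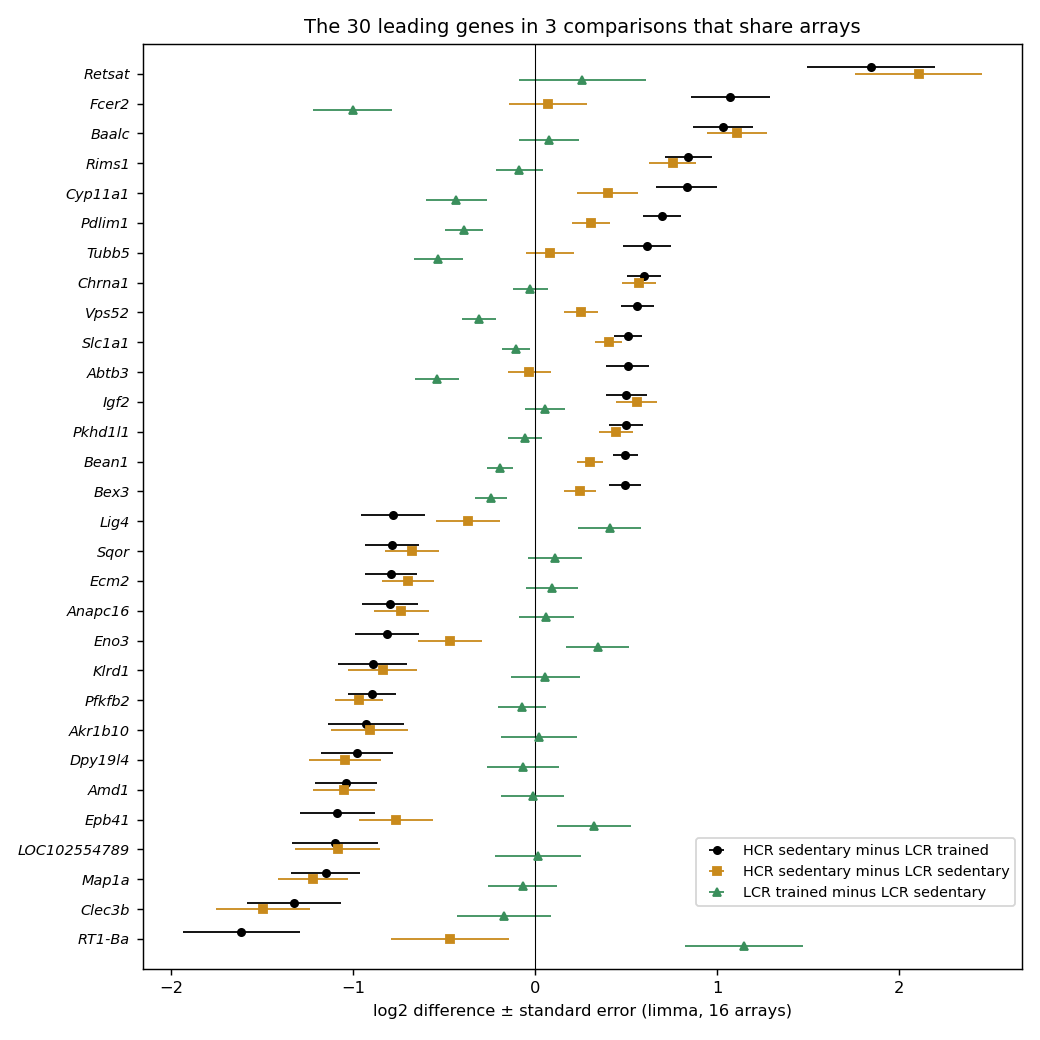
Log2 differences with standard errors of the 30 leading genes in HCR sedentary minus LCR trained rats (black), HCR sedentary minus LCR sedentary rats (ochre) and LCR trained minus LCR sedentary rats (green), which share arrays. Baalc, Amd1 and Clec3b have green points near 0, whereas Fcer2, Abtb3 and Tubb5 have ochre points near 0.

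The opposite pairing, HCR trained minus LCR sedentary rats, uses none of these 8 arrays. It called 63 probe sets (0.203%), 20 higher (0.0644%) and 43 lower (0.139%). In the fit of all arrays, 20 probe sets were called in both comparisons, 3.10% of the 645 and 31.7% of the 63, and all had the same direction, 6 higher and 14 lower. The 16 arrays share 1 estimate of spread in that fit. In separate fits of 8 arrays each, 79 and 44 probe sets were called and 5 in both. Without HCR sedentary rat 5 the counts were 57, 34 and 7. Of the 645, 524 (81.2%) had the same sign in the opposite pairing, against 63.0% of all probe sets, and as a description the differences correlated at r = 0.415 across probe sets, which are not independent.

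Some named genes were called whichever line had trained, in the fit of all arrays. In the separate fits of 8 arrays, the named genes called in both were Baalc, Bean1, Amd1 and Cand2. Retsat, Sqor, Akr1b10 and Dpy19l4 did not pass in both of those fits. Retsat read 2.19 ± 0.35 in the opposite pairing (limma adjusted p = 0.0160) and Baalc 1.35 ± 0.16 (adjusted p = 0.00201). Bean1 read 0.52 ± 0.07, Amd1 -0.97 ± 0.17, Sqor -0.81 ± 0.15, Akr1b10 -1.17 ± 0.21 and Dpy19l4 -1.21 ± 0.20 (adjusted p = 0.00513, 0.0327, 0.0409, 0.0364 and 0.0171). Cand2, a muscle regulator of cullin ubiquitin ligases, read 8.64, 8.64, 8.62 and 8.75 in HCR sedentary and 9.02, 9.19, 9.21 and 9.06 in LCR trained rats. It differed by -0.46 ± 0.06 here (adjusted p = 0.00843, and 0.0297 without rat 5) and by -0.48 ± 0.06 in the opposite pairing (adjusted p = 0.00511). Vps52 and the kinesin light chain Klc1 were called in both only through a second probe set. That of Klc1 read -0.83 ± 0.18 here (adjusted p = 0.0355, and 0.113 without rat 5) and -1.22 ± 0.18 in the opposite pairing (adjusted p = 0.0108). That of Vps52 read 0.46 ± 0.06 in the opposite pairing (adjusted p = 0.00513). The probe sets that stand for these genes read -0.07 for Klc1 and 0.23 for Vps52 in that pairing and were not called (adjusted p = 0.869 and 0.360). The list is completed by Acsf2, Pdlim3, Mcts2 and Hook1, named after their values were seen and with adjusted p in the first comparison of 0.0400, 0.0407, 0.0295 and 0.0340 (0.0992, 0.113, 0.0913 and 0.109 without rat 5), and by 6 probe sets without a single gene symbol. The sign was the same in the opposite pairing for 11 of the 15 leading higher genes and 13 of the 15 lower ones. Among those not called in it, Clec3b read -1.28 ± 0.26, Klrd1 -0.83 ± 0.19 and Cyp11a1 0.66 ± 0.17 (limma adjusted p = 0.0588, 0.0842 and 0.116). Fcer2 read -0.15 ± 0.22, Igf2 -0.03 ± 0.11, Epb41 0.17 ± 0.21 and Eno3 0.27 ± 0.18, each of opposite sign to the first comparison, and not one was called. Whether these values differ from those of the first comparison was not tested.

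**Figure D4:**
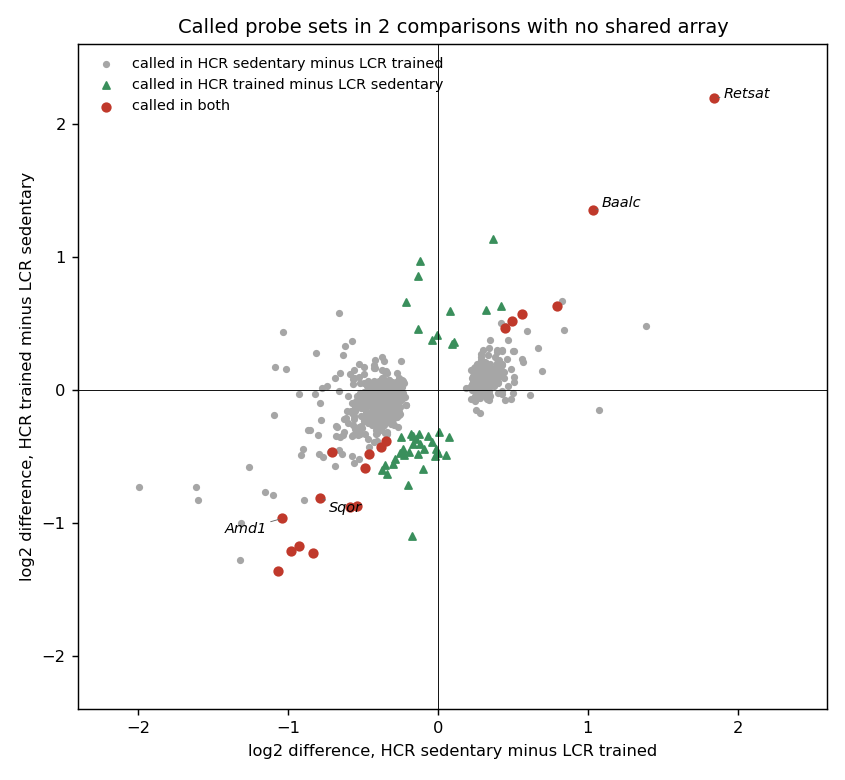
Called probe sets by their log2 difference in HCR sedentary minus LCR trained rats (horizontal) and HCR trained minus LCR sedentary rats (vertical), comparisons with no array in common. The 20 called in both have the same sign on both axes, and 3 called probe sets lie beyond the axes.

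Genes of each pathway were taken from lists, 1 probe set per gene for direction and median, and a share called is read against the 3.28% of all genes. The lists were chosen with earlier results of these data known, so a share above 3.28% is not an independent result. Over all 14217 genes 49.2% were higher and the median difference was -0.003 (0.012 after quantile normalization). Most members of the pathway lists are bright, and among bright probe sets 39.9% were higher, with a median of -0.044. Among fuel genes, 14 of 22 for fatty acid uptake and oxidation were lower, with a median of -0.035 that turned to 0.0022 after quantile normalization. The called member (4.55%) was Slc27a1, a fatty acid transport protein of the cell surface, at 9.49, 9.26, 9.60 and 9.49 in HCR sedentary and 9.74, 9.92, 10.14 and 10.09 in LCR trained rats, without overlap. It differed by -0.52 ± 0.09 (limma adjusted p = 0.0239, and 0.0413 without HCR sedentary rat 5). Of 21 PPAR target and fuel switch genes 15 were lower, with a median of -0.092 (-0.029 after quantile normalization). The called member (4.76%) was Acot2, a mitochondrial thioesterase of long-chain acyl-CoA, which was higher. It read 7.11, 7.10, 7.11 and 7.23 against 6.70, 6.74, 6.76 and 6.47, a difference of 0.47 ± 0.09 (adjusted p = 0.0281, and 0.0758 without rat 5). Its 2 brighter probe sets read -0.12 and 0.16 and were not called. Of 21 genes of glucose use 2 were called (9.52%), Pfkfb2 and Eno3, and 14 were lower, with a median of -0.038 (-0.026 after quantile normalization). None of 20 genes of pyruvate entry and the TCA cycle and none of 25 of the respiratory chain was called, with medians of -0.028 and -0.0075 that turned to 0.00051 and 0.021 after quantile normalization. Citrate synthase, Cs, read 12.56, 12.52, 12.54 and 12.53 against 12.40, 12.54, 12.60 and 12.43, and its difference was 0.05 ± 0.06. The fatty acid gatekeeper Cpt1b differed by 0.05 ± 0.06, the pyruvate dehydrogenase kinase Pdk4 by -0.19 ± 0.30 and the mitochondrial regulator Ppargc1a by -0.11 ± 0.11, and none of these passed.

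Lists of protein turnover and mitochondrial translation leaned towards lower levels in sedentary HCR rats, and few members passed. Of 23 proteasome and muscle-atrophy genes 21 were lower, with a median of -0.24 (-0.13 after quantile normalization). The called member (4.35%) was Psmd11, a lid subunit of the 26S proteasome, at 9.96, 9.72, 9.76 and 9.88 against 10.16, 9.98, 10.27 and 10.12, a difference of -0.31 ± 0.07 (limma adjusted p = 0.0460, and 0.140 without HCR sedentary rat 5). Dimmer probe sets of Psmd11 read -0.07 and 0.16 and were not called. Trim63, the muscle ubiquitin ligase MuRF1, read 9.13, 9.30, 8.95 and 9.05 against 9.52, 9.16, 9.81 and 9.58, overlapped and differed by -0.41 ± 0.11 (adjusted p = 0.0639). Of 22 genes of the mitochondrial ribosome 20 were lower, with a median of -0.16 (-0.062 after quantile normalization), and Mrpl13 was called at -0.35 ± 0.08 (adjusted p = 0.0377, and 0.115 without HCR sedentary rat 5). Of 21 heat shock proteins and co-chaperones 19 were lower, with a median of -0.14 (-0.06 after quantile normalization). Bag3, a co-chaperone of sarcomere upkeep, read 11.05, 10.94, 11.02 and 11.07 against 11.46, 11.37, 11.52 and 11.39. The groups stood clear of each other, with a difference of -0.41 ± 0.06 (adjusted p = 0.00787, and 0.0226 without HCR sedentary rat 5). Autophagy genes were lower in 14 of 17 (median -0.13, and -0.043 after quantile normalization) with none called, and Sqstm1 differed by -0.33 ± 0.10 (adjusted p = 0.0770). The shares called in these lists, at most 4.76%, are close to the 3.28% of all genes.

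Of 16 genes of sulfide oxidation and coenzyme Q synthesis 14 were lower, with a median of -0.14 (-0.053 after quantile normalization), and Sqor was the one called (6.25%, against 3.28% of all genes). Of 12 polyamine genes 9 were lower, with a median of -0.09 (-0.032 after quantile normalization), and Amd1 was the one called (8.33%). Among 17 retinoid genes 11 were higher, with a median of 0.11 (0.12 after quantile normalization), and Retsat was the one called (5.88%). The next largest of that list, the retinaldehyde dehydrogenase Aldh1a1, named after its values were seen, differed by 0.34 ± 0.18 (limma adjusted p = 0.256). Of 18 genes of cholesterol and steroid handling 2 were called (11.1%), Cyp11a1 and the cholesterol exporter Abcg1, which differed by 0.35 ± 0.07 (adjusted p = 0.0332, and 0.0913 without rat 5). The brighter probe sets of Abcg1 were not called, and the median of that list turned from -0.0055 to 0.063 after quantile normalization. Amd1, Sqor, Retsat and Cyp11a1 were known from earlier results of these data when these lists were chosen. The shares called here are therefore not independent of that choice.

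Of 26 interferon response genes 21 were lower, in the deposited values and after quantile normalization, with medians of -0.15 and -0.059. The mean level of the list was 7.87, 7.86, 7.78 and 7.69 in HCR sedentary rats 3 to 6 and 7.87, 7.51, 8.07 and 8.48 in LCR trained rats 1 to 4. The groups overlapped, with LCR trained rat 2 below every HCR sedentary rat and LCR trained rat 4 above all others. The median was -0.011 without LCR trained rat 4, -0.066 without LCR trained rat 3 and -0.31 without LCR trained rat 2. Ifit1, which binds viral RNA, was the member called (3.85%, against 3.28% of all genes). It read 5.63, 6.10, 6.00 and 5.76 in HCR sedentary and 6.49, 6.27, 6.66 and 6.73 in LCR trained rats, where HCR sedentary rat 4 came closest to the LCR values, and differed by -0.66 ± 0.15 (limma adjusted p = 0.0407, and 0.0935 without rat 5, called in 1 of 8 such fits). Named after their values were seen, the immunoproteasome subunits Psmb8, Psmb9 and Psmb10 differed by -0.70 ± 0.23, -0.44 ± 0.24 and -0.30 ± 0.15, the proteasome activator Psme2 by -0.31 ± 0.11 and the transcription factor Irf7 by -0.50 ± 0.25. Their adjusted p ran from 0.102 to 0.275, and not one passed. Of 19 antigen presentation genes 9 were higher, and 10 after quantile normalization, where the median turned from -0.025 to 0.017, and RT1-Ba was the one called (5.26%). Whether the lists differ from each other was not tested.

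Interferon-induced genes are known to carry a response element that the STAT and IRF factors bind. A motif of GAAA, any 2 bases and GAAA again, on either strand, was searched in the 250 bases before the start of each gene in RefSeq (GRCr8). It occurs in 12 of the 21 interferon genes with a window (57.1%) and in 3.41% of all 33469 windows. The 12 genes had a median difference of -0.21, with 10 lower and 2 higher, and the 9 without the letters a median of -0.11, with 8 lower and 1 higher. Windows of 3 members that were lower are shown 5′ to 3′ along the gene, for Irf7 (chr1:205800024-205800273, minus strand), Psme2 (chr15:33052752-33053001, minus strand) and Psmb10 (chr19:50743293-50743542, minus strand), with the matched letters in capitals (in Irf7 the match lies on the other strand).
Irf7: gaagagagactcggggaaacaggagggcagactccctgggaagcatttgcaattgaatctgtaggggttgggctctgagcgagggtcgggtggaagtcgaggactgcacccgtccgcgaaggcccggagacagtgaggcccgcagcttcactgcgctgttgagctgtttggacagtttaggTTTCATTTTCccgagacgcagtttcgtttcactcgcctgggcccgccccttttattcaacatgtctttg
Psme2: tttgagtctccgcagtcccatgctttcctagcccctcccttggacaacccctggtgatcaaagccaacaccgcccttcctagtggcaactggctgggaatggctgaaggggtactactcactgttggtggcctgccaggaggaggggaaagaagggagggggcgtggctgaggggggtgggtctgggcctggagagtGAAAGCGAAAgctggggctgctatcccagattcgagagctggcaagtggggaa
Psmb10: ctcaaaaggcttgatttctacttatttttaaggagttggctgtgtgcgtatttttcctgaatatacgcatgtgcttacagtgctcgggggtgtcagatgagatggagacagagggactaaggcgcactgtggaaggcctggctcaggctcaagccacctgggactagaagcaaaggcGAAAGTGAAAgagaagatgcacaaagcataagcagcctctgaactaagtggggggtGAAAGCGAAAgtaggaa
Psmb10 holds 2 matches, 73 and 17 bases before the start, and the others 1 each. A match describes the letters and shows no binding.

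Of 19 sarcomere genes 13 were lower in sedentary HCR rats, with a median of -0.058 (-0.043 after quantile normalization), and of 17 calcium-handling genes 13, with a median of -0.035 that turned to 0.01. The myosin heavy chain Myh6 read 13.80, 13.72, 13.94 and 13.97 against 13.87, 14.00, 13.86 and 13.93, the calcium pump Atp2a2 13.96, 13.97, 14.01 and 14.00 against 14.02, 13.98, 13.99 and 13.98, and phospholamban, Pln, 13.70, 13.67, 13.70 and 13.67 against 13.70, 13.70, 13.73 and 13.70. Their differences were -0.06 ± 0.07, -0.01 ± 0.04 and -0.02 ± 0.04, at levels near the highest value on any array, 14.54, and a dimmer Myh6 probe set read -0.74 (limma adjusted p = 0.393). Other members differed by more without passing the test. The skeletal alpha actin Acta1 differed by 0.58 ± 0.29 (adjusted p = 0.227). Named after their values were seen, the titin cap Tcap differed by -0.40 ± 0.14, the calcium pump regulator sarcolipin, Sln, by 0.43 ± 0.15 and triadin, Trdn, by -0.37 ± 0.16 (adjusted p = 0.116, 0.103 and 0.171). The sarcomere gene called (5.26%, against 3.28% of all genes) was Ldb3, a Z-disc protein, at -0.41 ± 0.09 (limma adjusted p = 0.0332, and 0.0935 without rat 5). Its other 5 probe sets, 4 of them brighter, were not called. No calcium-handling gene was called. Of 18 channel genes 11 were higher, with a median of 0.037 (0.034 after quantile normalization and -0.011 with centred arrays). Kcnj3, a subunit of the acetylcholine-gated potassium channel, was the one called (5.56%) at 0.39 ± 0.09 (adjusted p = 0.0397, and 0.112 without rat 5), and its dimmer probe sets were not called.

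The natriuretic peptide Nppa, a hormone of stretched myocardium, read 11.71, 12.52, 11.28 and 12.20 in HCR sedentary and 10.31, 10.77, 10.42 and 11.57 in LCR trained rats. LCR trained rat 4 overlapped the HCR rats, and the difference of 1.16 ± 0.31 did not pass (limma adjusted p = 0.0596). Nppb differed by 0.39 ± 0.18 (adjusted p = 0.210). The atrial myosin light chain Myl7, a marker of atrial tissue named after its values were seen, read 5.75, 8.01, 8.08 and 8.83 in HCR sedentary and 5.47, 6.34, 6.55 and 7.99 in LCR trained rats, a difference of 1.08 ± 0.68 (adjusted p = 0.336). Of 9 atrial markers 6 were higher, with a median of 0.23 (0.27 after quantile normalization) and Kcnj3 called (11.1%, against 3.28% of all genes). Their mean level ran from 7.42 to 7.91 in HCR sedentary rats and from 7.03 to 7.60 in LCR trained rats, and the part of atrial tissue in the Nppa and Kcnj3 values was not tested.

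Immediate early genes, which cells switch on within minutes of a stimulus, were higher in 17 of 20, with a median of 0.22 (0.23 after quantile normalization and -0.21 in the opposite pairing). None passed. Egr1 read 7.82, 9.65, 9.46 and 9.23 against 7.22, 8.07, 7.68 and 8.32, with HCR sedentary rat 3 inside the LCR range, and differed by 1.22 ± 0.39 (limma adjusted p = 0.0937). Fos differed by 0.94 ± 0.60 (adjusted p = 0.342) and by -1.62 ± 0.60 in the opposite pairing. Of 16 clock genes 2 were called (12.5%, against 3.28% of all genes), and 10 were lower, with a median of -0.12 (-0.057 after quantile normalization). Nr1d2, a repressor of the clock, read 6.83, 7.38, 7.00 and 7.02 against 7.64, 7.62, 7.87 and 7.73, with HCR sedentary rat 4 the highest of its group, and differed by -0.66 ± 0.14 (adjusted p = 0.0328, and 0.0975 without rat 5). A dimmer probe set of Nr1d2 was also called at -0.52 ± 0.11 (adjusted p = 0.0332, and 0.108 without rat 5). Clock, the activator, was called at 0.27 ± 0.06 (adjusted p = 0.0418, and 0.128 without rat 5) through its dimmest probe set, while the 3 brighter ones read 0.04, -0.24 and -0.25 and were not called.

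Of 25 genes of insulin and growth factor signalling 2 were called (8.00%, against 3.28% of all genes), Igf2 and the ErbB ligand Nrg1, at 0.38 ± 0.09 (limma adjusted p = 0.0433, and 0.114 without rat 5). The median of that list was -0.039 and turned to 0.03 after quantile normalization. A further probe set of Nrg1 was called at 0.22 ± 0.055 (adjusted p = 0.0479, and 0.150 without rat 5). The others read from 0.04 to 0.30 and were not called. These further probe sets have mean levels from 3.76 to 5.83, below every array median. Among dim probe sets 71.1% were higher in HCR sedentary rats. Of 26 collagen and matrix genes 3 were called (11.5%), and the median of -0.019 turned to 0.085. Beside Clec3b these were Tgfb3, a growth factor of the TGF-beta family, and Sparc, a collagen-binding matrix protein. Tgfb3 read 7.15, 7.00, 6.78 and 7.02 against 7.36, 7.47, 7.51 and 7.52, a difference of -0.48 ± 0.07 (adjusted p = 0.0114, and 0.0385 without HCR sedentary rat 5). Sparc read 11.97, 11.91, 11.73 and 11.82 against 11.51, 11.46, 11.55 and 11.54, a difference of 0.34 ± 0.08 (adjusted p = 0.0413, and 0.0820 without rat 5, called in 1 of 8 such fits). A further probe set of Sparc read 0.16 and was not called (adjusted p = 0.218). The collagen chains Col1a1 and Col3a1 overlapped between the groups and differed by -0.28 ± 0.17 and -0.11 ± 0.17. Vegfa, the main endothelial growth factor, differed by -0.18 ± 0.08 (adjusted p = 0.158).

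Markers of ventricular and other cells were compared as lists. The 14 cardiomyocyte markers averaged from 12.99 to 13.05 in HCR sedentary and from 13.06 to 13.11 in LCR trained rats, and the ventricular light chain Myl2 lay between 14.26 and 14.33 on all 16 arrays. Macrophage markers averaged from 7.17 to 7.45 and from 7.21 to 7.71, with 9 of 14 lower. Their median was -0.13 (-0.032 after quantile normalization) and turned to 0.012 without LCR trained rat 4. The receptor Cx3cr1 was called higher (7.14%, against 3.28% of all genes), at 0.33 ± 0.08 (limma adjusted p = 0.0431, and 0.135 without rat 5). Fibroblast markers averaged from 8.86 to 9.06 and from 8.76 to 9.28, with 11 of 14 lower and none called. Their median was -0.15 (-0.065 after quantile normalization), and -0.075 without LCR trained rat 4. Lymphocyte and natural killer markers averaged from 5.74 to 6.04 and from 5.94 to 6.12, with 9 of 17 lower, 6 higher after quantile normalization and Klrd1 called (5.88%). LCR trained rat 4 had the highest level of all 3 lists among the 8 arrays, and also of RT1-Ba. The part of these cells in the immune differences was not tested. Of 12 endothelial markers 8 were higher, with a median of 0.055 (0.17 after quantile normalization) and none called.

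**Figure D5:**
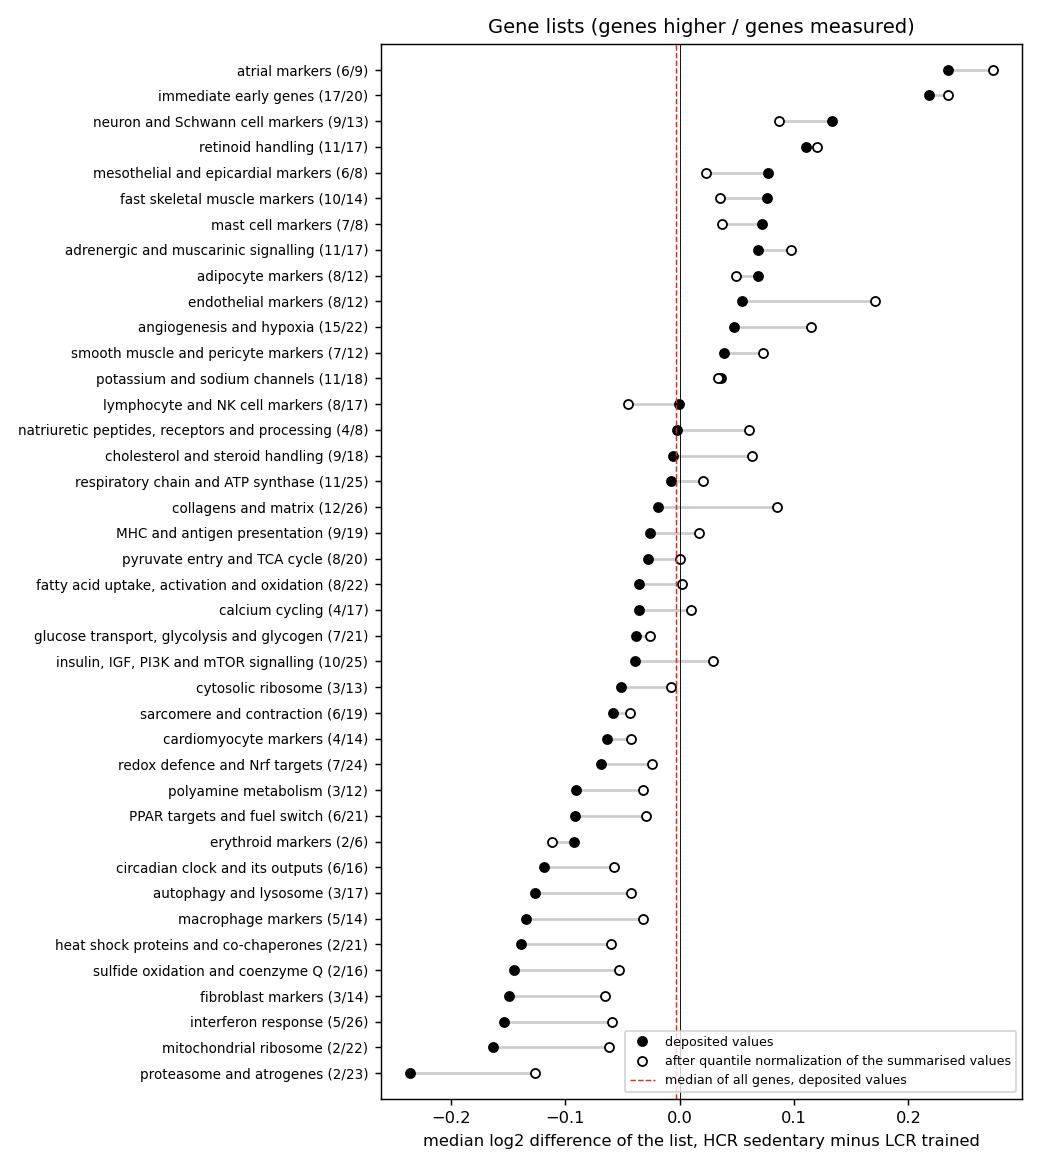
Median log2 difference of 27 pathway lists and 13 marker lists in the deposited values (filled) and after quantile normalization (open), with the number of higher genes over those measured; the red line is the median of all genes. Proteasome, mitochondrial ribosome and interferon lists lie left of 0 on both scales, and the immediate early and atrial lists right of 0.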

How the data were processed

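The deposited values, read here as log2, come from RMA as run by the authors, going by the design text and per the submitters' processing notes. No version is stated. The log base is not stated either and was taken as log2, since values run from 3.24 to 14.54. With another base the signs and tests would hold and the folds would not. Groups and rat numbers came from the sample titles. Of 31099 probe sets, 57 AFFX controls were left out and no filter was set. The platform annotation gave 1 symbol to 20826 of those tested, several to 436 and none to 9780.

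A linear model in limma 3.58.1 (R 4.3.3) was fitted to all 16 arrays, with 1 mean per group and 12 residual degrees of freedom. P-values were two-sided and adjusted over all 31042 probe sets (Benjamini-Hochberg). The fit was tested on simulated data. The text names the 15 genes per direction of largest difference among called genes whose arrays do not overlap, up to 4 called members of each list (or the 2 of largest difference), and preset genes. Members and lists were chosen with earlier results of these data known. Directions and medians of lists use the brightest probe set of a gene, and no set test was run. Alternatives were quantile normalization and median centring of the deposited values, a filter on dim probe sets, a fit of 8 arrays, a trended robust fit, a block for rat number, 1 probe set per gene, and each array left out in turn. The number of arrays limits the precision.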

Additional observations from a re-analysis of the deposited data

Results flagged for a closer look

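In 134 groups of 4 arrays, 10 values stood far from the other 3 by Dixon's gap test, where chance alone marks about 1 group in 20. The values 4.54, 4.36, 3.76 and 4.94 are those of the 4 Xist probe sets in HCR sedentary rat 5, against 7.65 to 9.87 in the other 3 rats of its group. Tubb5 read 9.38 in HCR sedentary rat 4 against 9.12 to 9.14 in the other HCR sedentary rats. RT1-Ba read 10.88 in LCR trained rat 4 against 9.91 to 9.94 in the rest of its group. Acot2 and Cand2 were highest in HCR sedentary rat 6, at 7.23 and 8.75. The calcium pump Atp2a2 read 14.02 in LCR trained rat 1 and phospholamban, Pln, 13.73 in LCR trained rat 3.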

How the results depend on the processing

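For HCR sedentary minus LCR trained, the count of 645 called probe sets was 279 after quantile normalization (41.2% higher), 1074 with centred arrays and 79 when only the 8 arrays were fitted. Leaving out 1 array gave 42 to 2619. It was 646 with dim probe sets left out (20.9% higher), 577 with an intensity trend and 578 with 1 probe set per gene (28.0% higher). For HCR trained minus LCR sedentary, 63 became 40 with centred arrays, and 14 to 82 with 1 array left out, and it was 44 to 76 in the other settings. Rat numbers are shared by some rats of different groups. Those of the same number in the compared groups, 3 and 4, deviated together at r = 0.213 and -0.0243. Across all groups rats of the same number ran from -0.231 to 0.339, and rats of different numbers from -0.409 to 0.459. So few rats cannot exclude a pairing, and the main fit did not pair them. With the rat number as a block, 643 probe sets were called in the first comparison (26.7% higher) and 49 in the second, and 22 of the 30 leading genes. Of 40 list medians, 9 changed sign after quantile normalization and 2 with centred arrays. With 4 arrays per group, many adjusted p lie between 0.02 and 0.05 and cross the threshold when 1 array is left out. Probe sets near background have compressed differences.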
